A study of Mus musculus with 6 samples.

Results

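The genes described here build, cut, link and anchor the actin cytoskeleton. They comprise actin itself, the proteins that nucleate, elongate, cap and bundle its filaments, and the cytolinkers, giant proteins that tie actin to microtubules and intermediate filaments. Their 58 symbols were taken from a hand-made list of actin and cytolinker genes and looked up in a table of 46095 gene symbols. All 58 were found, and all 58 were among the 14120 genes with enough counts to be tested. RNA had been sequenced from BV2 cells, a mouse microglial line immortalised with retroviral oncogenes. The CON group was 3 libraries of untreated cells. The sTREM-1 group was 3 libraries of cells given 1 μg/mL of recombinant sTREM-1, the soluble form of a receptor of myeloid cells, for 6 h. BV2 is a single immortalised line, and the numbered libraries of a group are the only replication that the labels name. Each p-value therefore sets the difference between the groups against the spread between these libraries.

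Actin monomers (G-actin) assemble into polar filaments (F-actin). The Arp2/3 complex, switched on by WASP and WAVE proteins, starts branches, while formins and Ena/VASP proteins extend unbranched filaments. Cofilin and gelsolin cut filaments, capping protein stops their growth, and myosin pulls on them. Microglia use this machinery to extend processes, migrate and form the phagocytic cup, and the question of the experiment was how sTREM-1 alters the functions of microglia. Many actin genes are also targets of serum response factor (SRF) and its partner MRTF, which G-actin holds out of the nucleus. SRF binds the CArG box, CC and GG around a run of A and T bases.

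A CArG box was searched for in RefSeq promoter windows (GRCm38.p6), which run from 250 bases before a gene's start to 50 after it. A perfect box reads as the same kind of motif on both strands. Of the members, 48 had a window, and the box lay in 4 of them (8.33%), against 1.81% of the 27025 genes with a window. Those 4 stretches are shown because the box is the best known promoter element of actin genes. Each is written 5′ to 3′ on the gene's strand with the box in capitals. The Actg1 stretch is chr11:120348551-120348610 on the minus strand, that of Vcl chr14:20929148-20929205 on the plus strand, that of Myl6 chr10:128493025-128493084 on the minus strand and that of Arpc4 chr6:113377863-113377897 on the plus strand.
Actg1: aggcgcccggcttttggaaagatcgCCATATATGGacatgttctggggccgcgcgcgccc
Vcl: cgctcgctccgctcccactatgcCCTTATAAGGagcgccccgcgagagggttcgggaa
Myl6: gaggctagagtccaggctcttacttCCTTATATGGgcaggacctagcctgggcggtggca
Arpc4: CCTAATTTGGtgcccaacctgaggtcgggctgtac
The box began 90 bases before the start of Actg1, 227 before Vcl, 50 before Myl6 and 250 before Arpc4, counted from the RefSeq start of each window. The starts in GENCODE M21, which gave the gene positions printed below, differ for some of these genes. From them the box began 43 bases before Actg1, 227 before Vcl and 252 before Arpc4, while that of Myl6 lay inside the gene. Of these 4 genes, Actg1 passed the test of sTREM-1 against CON, as given with its values below. Vcl had a log2 fold change of 0.07, Myl6 of -0.04 and Arpc4 of 0.03, and none of these passed. A match describes letters and is not a measured binding site.

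The libraries were deep and alike in size. Total counts lay between 40663981 and 40779439 in the CON group and between 40070633 and 45877107 in the sTREM-1 group. The members took 1.95% to 1.97% of all counts in every library. Counts of microglia and macrophage markers summed to between 2777 and 2800 CPM (counts scaled to a common library total) in the CON group and to between 3069 and 3106 CPM in the sTREM-1 group, and the part of this rise in the results below was not tested. Of the 11 markers tested, 5 were called higher by the test described below and the other 6 were not called. Those 5 are 45.5% of the tested markers, where 16.5% of all tested genes were called higher and 30.5% in either direction. Csf1r, a receptor that microglia need to survive, had a log2 fold change of 0.53. The defining microglial marker Aif1, which encodes the actin-binding protein IBA-1, was listed at 0 in all 6 libraries, and P2ry12 averaged 0.668 CPM in the CON group. Markers of neurons summed to at most 0.299 CPM, of astrocytes to at most 0.474, of fibroblasts to at most 0.515 and of oligodendrocytes to at most 7.86. In bulk RNA, a change in the kinds of cell present cannot be told apart from a change in RNA per cell.

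Levels below are CPM scaled by the trimmed mean of M values (TMM), and differences are log2 fold changes of sTREM-1 against CON with their standard errors (SE). A gene was called when edgeR's quasi-likelihood test gave a Benjamini-Hochberg adjusted p under 0.05 over all tested genes. Of the 58 members 32 were called (55.2%), against 30.5% of all tested genes. The called members were split evenly. There were 16 higher after sTREM-1, where 16.5% of all genes were called higher, and 16 lower, where 14.1% were called lower. Actin genes are abundant, and 55 of the 58 averaged at least 10 CPM. Of those 55, 31 were called (56.4%), against 42.0% of all genes at that level.

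The changes were small. The median absolute log2 fold change was 0.087 over the members and 0.127 over all tested genes, and the called members changed by a median of 1.10-fold in either direction. Only 5 members (8.62%) were both called and changed at least 1.2-fold, against 10.7% of all genes. These were Gas7, Gsn, Evl and Flna, which rose, and Dst, which fell. The signed median over the members was 0.013, with quartiles of -0.08 and 0.09, and that over all tested genes was -0.0017. In 34 members (58.6%) the 3 sTREM-1 libraries all lay on one side of the 3 CON libraries, against 40.7% of all genes. Of these 34, 31 were called, and the other 3 were Actn1, Brk1 and Ezr. Among members of at least 10 CPM there were 33 such genes (60.0%), against 51.7% of all genes at that level. Over the 58 members, the rank correlation (Spearman's rho) of the log2 fold change was 0.067 with transcript length and -0.052 with GC content, given as a description. The plot of the members by role shows that 6 of the 11 roles held both a higher and a lower call. Roles hold 2 to 9 genes each, so counts within a role are given as a description.

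**Figure D1:**
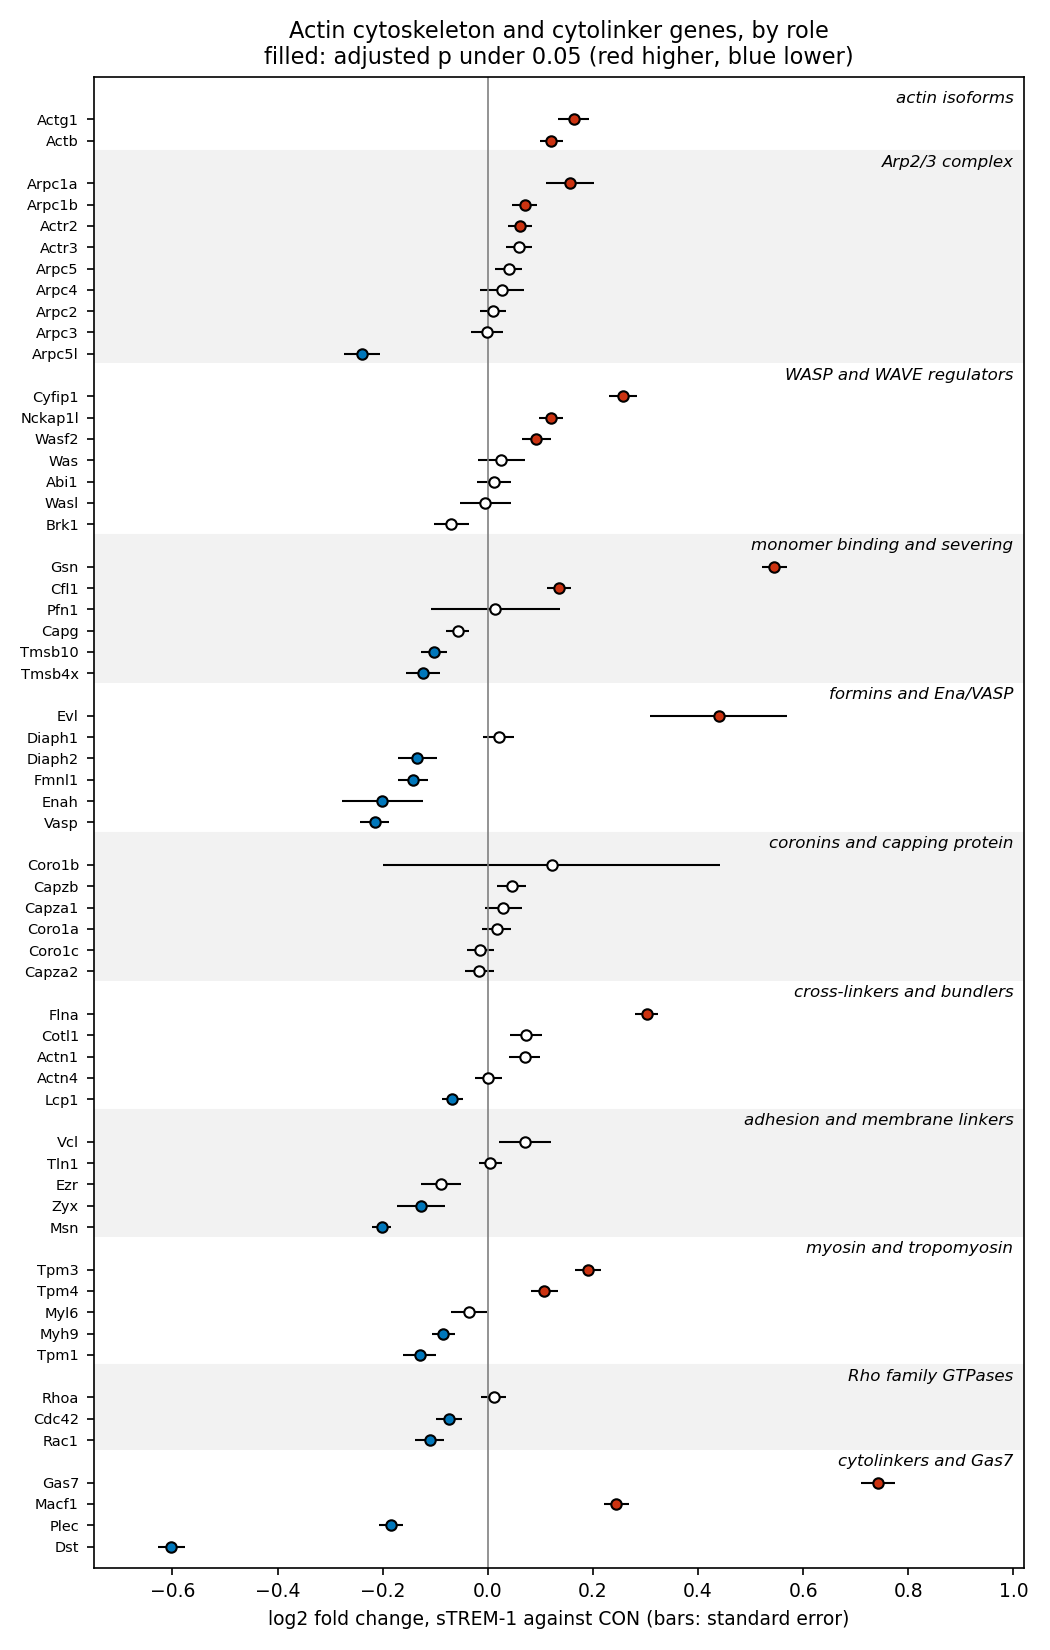
Log2 fold change of sTREM-1 against CON (horizontal axis) for each of the 58 genes, grouped by role, with bars for the standard error. Filled points passed an adjusted p of 0.05, in red for 16 higher and blue for 16 lower genes. Gas7 (0.74) and Dst (-0.60) lie farthest from 0.

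The cytolinkers and Gas7 held the largest changes in both directions. Gas7, a growth-arrest protein that binds actin and shapes membranes (chr11:67455437-67688990, plus strand, GRCm38), was counted at 111.0, 111.4 and 118.6 CPM in the CON libraries and at 184.1, 189.6 and 197.0 CPM in the sTREM-1 libraries. The lowest sTREM-1 library lay well above the highest CON library. The mean of Gas7 rose from 113.7 ± 4.25 to 190.2 ± 6.47 CPM (± SD over 3 libraries), and its log2 fold change was 0.74 (SE 0.03, edgeR adjusted p = 3.74e-17).

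Dst, which encodes dystonin, a spectraplakin that joins actin to microtubules and intermediate filaments (chr1:33908225-34308661, plus strand), was at 897.7, 840.0 and 924.9 CPM in CON and at 585.3, 580.1 and 589.1 CPM after sTREM-1. The groups were far apart, and the sTREM-1 libraries lay closer together than the CON libraries. Dst fell by 0.60 on the log2 scale (SE 0.03, edgeR adjusted p = 2.88e-17), a change of -34.1%. Its closest relative Macf1, the microtubule-actin cross-linking factor and the other spectraplakin of the list (chr4:123349633-123684360, minus strand), moved the other way. Macf1 was at 569.3, 534.2 and 562.5 CPM in CON and at 649.8, 673.2 and 650.9 CPM after sTREM-1, without overlap. It rose by a log2 fold change of 0.24 (SE 0.02, edgeR adjusted p = 2.51e-09).

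Plec, which encodes plectin, the cytolinker that anchors intermediate filaments to actin and adhesion sites (chr15:76170974-76232574, minus strand), was at 623.5, 610.3 and 611.8 CPM in CON and at 539.3, 533.0 and 552.6 CPM after sTREM-1. All 3 treated libraries lay below all 3 CON libraries. Plec fell by 0.18 on the log2 scale (SE 0.02, edgeR adjusted p = 1.13e-07). After a correction for GC content and length, its log2 fold change was -0.10 and still passed, with an edgeR adjusted p of 0.000436.

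Counts of 2 genes in the same library can be set against each other without any scaling between libraries. There were 1.58, 1.57 and 1.64 Dst counts for each Macf1 count in the CON libraries and 0.901, 0.862 and 0.905 after sTREM-1. Dst was thus the more counted of the spectraplakins in each CON library and the less counted in each sTREM-1 library. The annotated transcripts used for their lengths are close in size, at 23251 and 23495 nt. Counts by gene do not tell which transcripts the cells made. Few 50-base windows of these annotated transcripts are shared with another gene (0.728% for Dst and 0.00% for Macf1). The ratio of Plec to Macf1 moved from a mean of 1.11 to 0.824.

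**Figure D2:**
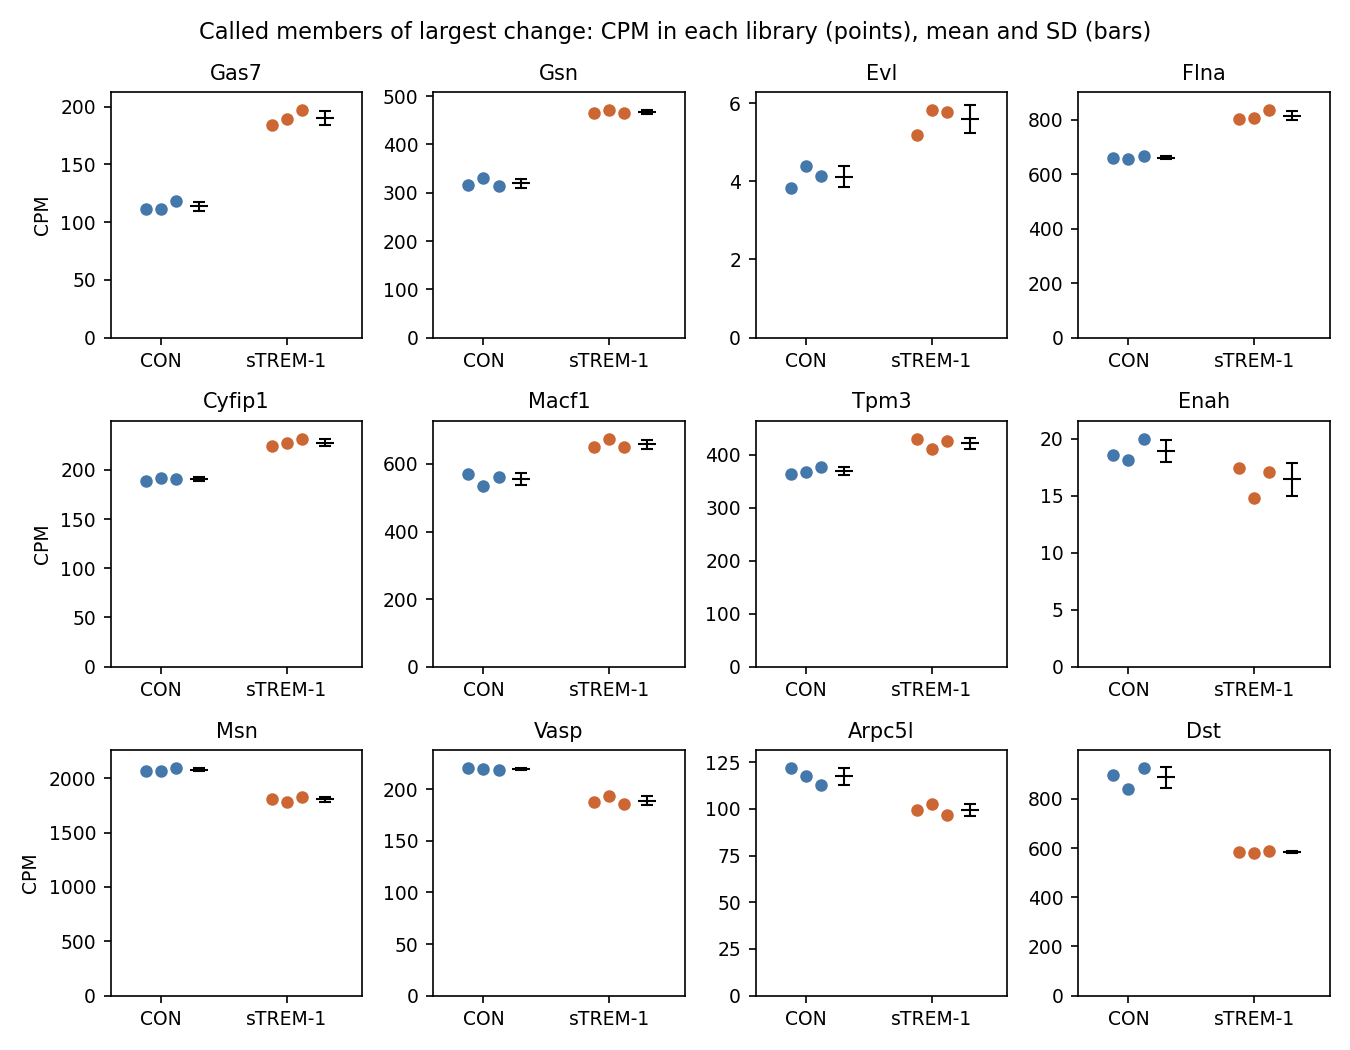
CPM in each library (points) for the 12 called genes of largest change, with CON in blue and sTREM-1 in orange, the mean and SD as bars, and axes starting at 0. In all 12 genes the 3 sTREM-1 libraries lie on one side of the 3 CON libraries, most closely for Enah. The 12 were chosen for a large called change, which itself favours groups that lie apart. Over all tested genes, the groups do not overlap in 40.7%.

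The actin isoforms of non-muscle cells both rose. Actb, β-actin (chr5:142903115-142906754, minus strand), was at 1588, 1593 and 1562 CPM in CON and at 1732, 1651 and 1774 CPM after sTREM-1. The groups did not overlap, although sTREM-1 library 2 came near the CON libraries. Actb had a log2 fold change of 0.12 (SE 0.02, edgeR adjusted p = 5.28e-05), and per kb of transcript it was the most abundant member, at 859 CPM per kb over all libraries.

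Actg1, γ-actin (chr11:120345690-120348542, minus strand), was at 227.9, 245.1 and 240.2 CPM in CON and at 261.1, 260.0 and 277.6 CPM after sTREM-1. Again the groups did not overlap. It had a log2 fold change of 0.16 (SE 0.03, edgeR adjusted p = 6.30e-05). The ratio of Actb to Actg1 counts was 6.66 ± 0.268 in CON and 6.46 ± 0.152 after sTREM-1, and its values in the groups overlapped. Processed copies share sequence with Actg1 in 56.7% of its 50-base windows, so part of its reads could have been assigned elsewhere.

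Among the genes that bind actin monomers or cut filaments, 2 rose, 2 fell and 2 were not called, where 30.5% of all genes passed. Gsn, gelsolin, which severs and caps filaments when calcium rises (chr2:35256380-35307892, plus strand), was at 315.2, 330.6 and 314.0 CPM in CON and at 464.1, 470.7 and 465.7 CPM after sTREM-1. Each group was tight and the gap between them wide. Gsn rose by a log2 fold change of 0.55 (SE 0.02, edgeR adjusted p = 9.31e-17), the second of the members by size among those that rose.

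Cfl1, cofilin, which severs ageing filaments, was at 876.6, 876.7 and 890.2 CPM in CON and at 959.1, 941.0 and 1004.0 CPM after sTREM-1. It rose less than Gsn did, by a log2 fold change of 0.14 (SE 0.02, edgeR adjusted p = 1.87e-05). The thymosins, small peptides that hold actin monomers back from filaments, were lower. Tmsb10 was at 480.4, 488.5 and 461.4 CPM in CON and at 439.0, 440.5 and 453.5 CPM after sTREM-1, with a log2 fold change of -0.10 (SE 0.02, edgeR adjusted p = 0.00164).

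Tmsb4x was at 432.9, 459.4 and 415.7 CPM in CON and at 404.1, 420.7 and 376.5 CPM after sTREM-1. Here the groups overlapped, since sTREM-1 library 2 exceeded CON library 3, and Tmsb4x was the 1 called member of which this was true. Its log2 fold change was -0.12 (SE 0.03, edgeR adjusted p = 0.00377), and DESeq2 gave it an adjusted p of 0.107. After correction for GC content and length the log2 fold change was -0.07 (edgeR adjusted p = 0.0456). Capg, a gelsolin relative that caps filaments without cutting them, was at 769.5, 745.3 and 770.7 CPM in CON and at 740.5, 710.0 and 745.7 CPM after sTREM-1. Those values overlapped by a narrow margin. Capg did not pass (log2 fold change -0.06, edgeR adjusted p = 0.0536), but it passed in several other fits, DESeq2 among them (adjusted p = 0.0289).

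Pfn1, profilin, which feeds monomers to growing ends, was counted 205 to 248 times per library, at 5.37 ± 0.331 CPM in CON and 5.42 ± 0.373 CPM after sTREM-1. Its log2 fold change of 0.01 had an SE of 0.12, so that a change of the size seen in Cfl1 could not have been told from none at this count. Why its counts were this low, with 0 overlapping genes and 0.00% of its windows shared, was not tested.

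Of the 9 genes of the Arp2/3 complex, 3 were called higher, 1 lower and 5 neither, against 30.5% of all genes called. Arpc5l, an alternative form of the ARPC5 subunit, was the gene called lower. It was at 121.8, 117.9 and 112.9 CPM in CON and at 99.2, 102.7 and 96.6 CPM after sTREM-1, and it fell by 0.24 on the log2 scale (SE 0.03, edgeR adjusted p = 2.09e-06). Its paralog Arpc5 had a log2 fold change of 0.04 and was not called. There were 0.388, 0.377 and 0.370 Arpc5l counts for each Arpc5 count in CON and 0.315, 0.310 and 0.309 after sTREM-1, so that the share of the alternative form was lower in every treated library.

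The other forms of a shared subunit, Arpc1a and Arpc1b, were higher by log2 fold changes of 0.16 and 0.07. Of the subunits that resemble actin, Actr2 (0.06) was called at an edgeR adjusted p of 0.0434 and Actr3 (0.06) missed at 0.0666, and the ratio of their counts was 1.27 in either group. Arpc2, Arpc3 and Arpc4 lay between 0.00 and 0.03. The called increases in this complex were weak. Without a single library, the edgeR adjusted p of Actr2 exceeded 0.05 in 5 of 6 fits, reaching 0.29 without sTREM-1 library 2. That of Arpc1b did so in 5 of 6, between 0.0649 without CON library 2 and 0.0803 without CON library 3, and that of Arpc1a was 0.0515 without sTREM-1 library 3.

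Of the 7 activators of Arp2/3, 3 were called higher, against 16.5% of all genes, and the other 4 were not called. Those 3 are all parts of the WAVE complex, which links Rac signals to branching. Cyfip1, the subunit that binds Rac, was at 188.3, 192.1 and 190.8 CPM in CON and at 224.2, 227.5 and 231.2 CPM after sTREM-1. It rose by a log2 fold change of 0.26 (SE 0.03, edgeR adjusted p = 5.09e-09). Nckap1l, the scaffold of the complex in blood cells, and Wasf2, a WAVE protein itself, were higher by 0.12 and 0.09. Without CON library 1, Wasf2 had an edgeR adjusted p of 0.068. The other WAVE parts Abi1 and Brk1 had log2 fold changes of 0.01 and -0.07, and Was and Wasl, the WASP proteins, of 0.03 and 0.00. None of these 4 was called.

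Genes that extend unbranched filaments had the lowest median of any role, at -0.14, with 4 of 6 called lower and 1 higher. Over all tested genes, 14.1% were called lower and 16.5% higher. Vasp, which protects growing ends from capping, was at 220.3, 219.4 and 218.2 CPM in CON and at 187.1, 193.6 and 185.9 CPM after sTREM-1. It fell by 0.22 on the log2 scale (SE 0.03, edgeR adjusted p = 1.91e-07). Its relative Evl was scarce and moved the other way, from 3.83, 4.39 and 4.14 CPM in CON to 5.19, 5.82 and 5.77 CPM after sTREM-1.

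Evl had a log2 fold change of 0.44 (SE 0.13, edgeR adjusted p = 0.00981). There were 0.0188 ± 0.00131 Evl counts per Vasp count in CON and 0.0296 ± 0.00170 after sTREM-1, so Vasp remained by far the more counted in both groups. Enah, the other Ena/VASP gene, was at 18.6, 18.1 and 19.96 CPM in CON and at 17.4, 14.8 and 17.1 CPM after sTREM-1, with a log2 fold change of -0.20 (SE 0.08, edgeR adjusted p = 0.0464). That call was at the threshold. The edgeR adjusted p of Enah was 0.0857 without CON library 1, 0.198 without CON library 3 and 0.251 without sTREM-1 library 2. The formins Fmnl1 and Diaph2 fell by 0.14 and 0.13 on the log2 scale, and Diaph1 stood at 0.02 without a call.

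Of the 6 coronin and capping protein genes 0 were called by edgeR, with 0 also at an unadjusted p under 0.05 and 0 by DESeq2. Over all tested genes, edgeR called 30.5%. The filament stabilisers Coro1a and Coro1c had log2 fold changes of 0.02 and -0.01. Capza1, Capza2 and Capzb, the subunits of capping protein, lay between -0.02 and 0.05. Coro1b was counted 285, 79 and 61 times in CON and 110, 161 and 205 times after sTREM-1. Its SE of 0.32 was the largest of the members, and without CON library 1 its log2 fold change of 0.12 became 1.14 (edgeR adjusted p = 0.00105). Coro1b overlaps the gene Ptprcap in 20.8% of its windows.

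Of the 5 cross-linkers and bundlers 1 was called higher, 1 lower and 3 neither, against 30.5% of all genes called. Flna, filamin A, which joins filaments into a gel and ties them to receptors (chrX:74223461-74249820, minus strand), was at 659, 657 and 665 CPM in CON and at 802, 807 and 834 CPM after sTREM-1. The groups were well apart, and the gene rose by a log2 fold change of 0.30 (SE 0.02, edgeR adjusted p = 2.50e-12). Lcp1, the bundling protein L-plastin of white blood cells, was lower at -0.07, and without CON library 1 or sTREM-1 library 2 its edgeR adjusted p was 0.0635 or 0.0579. Actn1 and Cotl1 had log2 fold changes of 0.07 each and Actn4 of 0.00, and these 3 were not called.

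Of the 5 linkers to the membrane and to adhesion sites, 2 were called lower, against 14.1% of all genes. The other 3 were not called. Msn, moesin, which anchors cortical actin to the membrane (chrX:96096042-96168552, plus strand), was at 2067, 2068 and 2091 CPM in CON and at 1807, 1782 and 1824 CPM after sTREM-1. It fell by 0.20 on the log2 scale (SE 0.02, edgeR adjusted p = 3.19e-10) with a wide gap between the groups. Its relative Ezr, ezrin, was at -0.09 and missed the threshold (edgeR adjusted p = 0.0787), but passed after correction for GC content and length (0.0247). The ratio of Ezr to Msn counts went from 0.0345 to 0.0374. Zyx, zyxin of focal adhesions, was lower at -0.13, and its edgeR adjusted p lay between 0.0768 and 0.0997 without CON library 1, CON library 3, sTREM-1 library 1 or sTREM-1 library 2. The integrin linkers Tln1 (0.00) and Vcl (0.07) were not called.

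Of the contractile genes, the tropomyosins, which coat filaments and select the proteins that reach them, divided. Tpm3 was at 363.0, 367.6 and 377.5 CPM in CON and at 429.5, 410.5 and 425.3 CPM after sTREM-1, a log2 fold change of 0.19 (SE 0.02, edgeR adjusted p = 3.35e-07). Tpm4 was also higher, at 0.11, while Tpm1 was lower, at -0.13. There were 0.320 ± 0.0109 Tpm1 counts per Tpm3 count in CON and 0.256 ± 0.00587 after sTREM-1. Copies of Tpm3 elsewhere in the genome share 62.4% of its windows. Myh9, the heavy chain of non-muscle myosin, was lower at -0.08, which became -0.05 and missed the threshold (edgeR adjusted p = 0.0565) after correction for GC content and length. The light chain Myl6 was at -0.04 with no call.

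Of the 3 small GTPases among the members, which steer these proteins, 2 were called lower, where 14.1% of all genes were. Rac1, which drives lamellipodia, fell by 0.11 on the log2 scale, and Cdc42, which drives filopodia, by 0.07. Without CON library 2 or sTREM-1 library 1, Cdc42 had an edgeR adjusted p of 0.11 or 0.133, and after correction for GC content and length its log2 fold change was -0.05 with an edgeR adjusted p of 0.102. Rhoa, which drives contraction, had a log2 fold change of 0.01. Of related GTPases outside the members, Rhog was called higher at 0.14 (edgeR adjusted p = 0.00471) and Rac2, the Rac of blood cells, stood at 0.01 with no call.

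**Figure D3:**
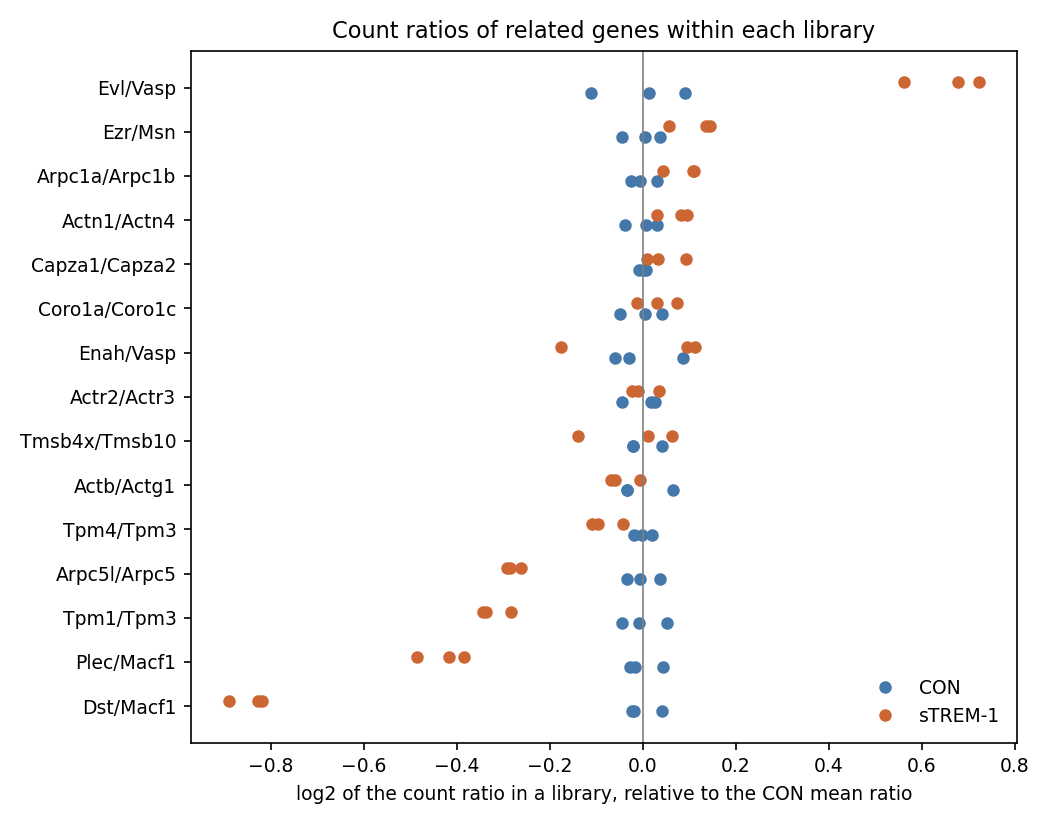
Count ratio of 15 pairs of related genes in each library, as the log2 ratio to the CON mean (horizontal axis), with CON in blue and sTREM-1 in orange. In 9 pairs the groups do not overlap, with Dst/Macf1 farthest below 0 (-0.85) and Evl/Vasp farthest above (0.66). The margin is narrowest for Capza1/Capza2, where the groups nearly touch. Among single genes, the groups do not overlap in 40.7% of all tested.

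Ratios of related genes were taken for 15 pairs of members, chosen after the values had been seen and given with no test. In 9 pairs the groups did not overlap and in 6 they did. For single genes the groups did not overlap in 40.7% of all tested genes and in 51.7% of those of at least 10 CPM. No such share was taken over other pairs. Beyond the pairs above, Arpc1a to Arpc1b, Capza1 to Capza2 and Tpm4 to Tpm3 were apart, each with a mean difference of less than 0.1 on the log2 scale. Capza1 to Capza2 was barely apart, at 0.3677 in CON library 3 and 0.3679 in sTREM-1 library 3. Other genes share 73.8% of the windows of Capza1. The overlapping pairs were Actb to Actg1, Actr2 to Actr3, Enah to Vasp, Tmsb4x to Tmsb10, Actn1 to Actn4 and Coro1a to Coro1c.

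Actb is often the reference gene against which RT-PCR values are expressed, so its log2 fold change is set here beside those of the other genes. Of the other members, 12 had a higher log2 fold change than Actb and 45 a lower. Of the members called higher, 4 lay below it, namely Actr2, Arpc1b, Wasf2 and Tpm4. Among 14 common reference genes 5 were called higher, 2 lower and 7 neither by edgeR. Pgk1 (0.27), Gapdh (0.25), Rplp0 (0.12) and Sdha (0.12) were higher beside Actb, and Hprt (-0.09) and Gusb (-0.07) were lower. Gapdh was at 89.5, 89.8 and 90.7 CPM in CON and at 116.9, 111.4 and 92.4 CPM after sTREM-1. Its sTREM-1 library 3 thus lay near the CON libraries. Those with log2 fold changes closest to 0 were Rpl13a (0.00), Ywhaz (0.00) and Eef1a1 (0.03), while B2m (0.04), Ppia (-0.05), Polr2a (0.07) and Tbp (-0.10) were also not called. Ppia was counted only 291 to 414 times per library, and its SE was 0.11. A change of the size seen in Actb could not have been told from none in Ppia.

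**Figure D4:**
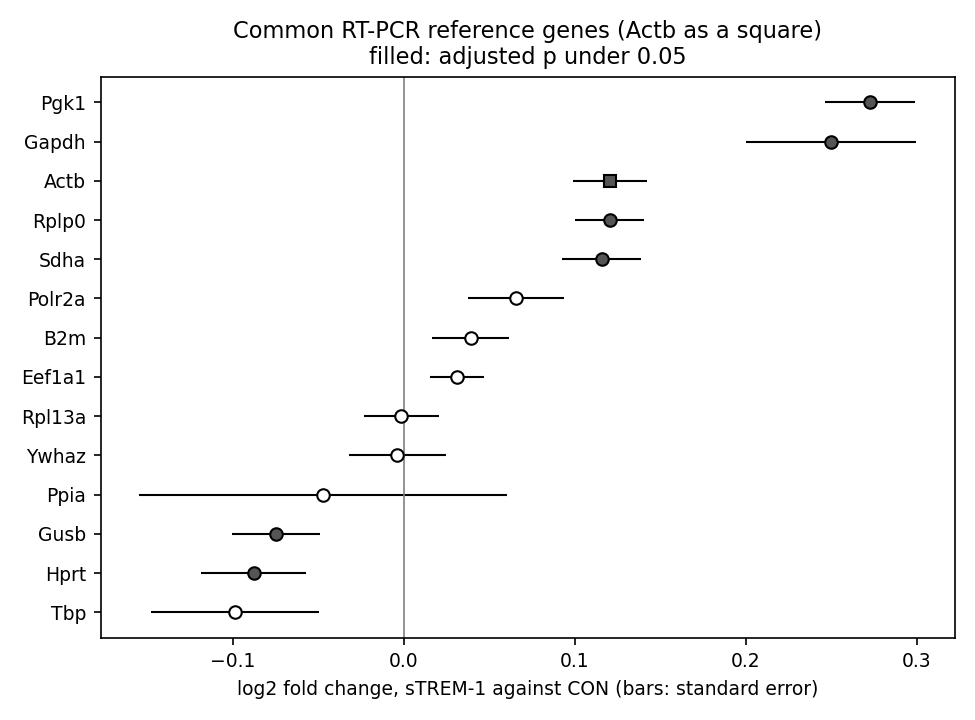
Log2 fold change of sTREM-1 against CON (horizontal axis) with its standard error for 14 common RT-PCR reference genes, with Actb as a square and called genes filled. Actb (0.12) lies with the 5 genes called higher, between Gapdh (0.25) and Rpl13a (0.00). Over all tested genes, 16.5% were called higher and 30.5% in either direction.

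A wider list of 81 actin regulators that are not members had 71 tested genes, of which 21 were called higher and 13 lower. That is 47.9% called, against 30.5% of all tested genes and 42.0% of those of at least 10 CPM. Their median was 0.018 on the log2 scale. The largest called changes were in Myo1f, a myosin of the leukocyte cortex (0.60), Nf2, the ERM relative merlin (0.50), Dock8, an activator of Cdc42 (0.45), Svil, supervillin (-0.42, edgeR adjusted p = 0.0410, with overlapping groups), and Twf2, a twinfilin that binds monomers (0.35).

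Partners of the cytolinkers were examined in a list of 13 plakin, intermediate filament, lamin and nuclear linker genes. The plakins Evpl, Ppl, Dsp and Eppk1 and the filament gene Nes were too low to test, at no more than 13 counts in any library. Of the 8 tested genes 4 were called higher and 2 lower, where 16.5% of all tested genes were called higher and 14.1% lower. Calls in either direction made up 30.5% of all tested genes and 42.0% of those of at least 10 CPM. Vim, vimentin, the intermediate filament to which plectin binds, had a log2 fold change of 0.24 (SE 0.02, edgeR adjusted p = 1.66e-10). Lmna (0.08), Lmnb2 (0.36) and Syne2 (0.56) were higher, and Sun2 (-0.15) and Syne1 (-0.08) were lower. The groups overlapped for Syne1 (edgeR adjusted p = 0.0247).

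The SRF and MRTF pathway had 14 tested genes, 8 of them members. Of these 14, 3 were called higher (Actb, Actg1 and Flna) and 4 lower (Fos, Tpm1, Zyx and Myh9). The shares of all tested genes were 16.5% called higher and 14.1% called lower. In either direction they were 30.5% of all tested genes and 42.0% of those of at least 10 CPM. The transcript of Srf itself had a log2 fold change of 0.06 and was not called, and those of the MRTF genes, listed as Mkl1 and Mkl2, had values of -0.10 and -0.07 with no call. Fos, an early SRF target, fell by 0.55 on the log2 scale (edgeR adjusted p = 5.49e-11).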

How the data were processed

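The 3 CON and 3 sTREM-1 libraries were made from total RNA of BV2 cells. The paper's methods give a larger n for the RNA-seq than the 3 libraries held for each group. What the authors deposited is a table of raw counts by gene symbol, and the paper's methods name RSEM, FPKM and edgeR. The submitters' processing notes name HISAT2 2.0.4 with the human builds hg19 and GRCh38, although the cells and the symbols are of mouse. The annotation and the use of strand are not given in the sources used here, so reads of overlapping or near-identical genes could have been split or lost. Over 40% of 50-base windows are shared with other genes in 6 members (Capza1, Tpm3, Actg1, Myl6, Actr3 and Tmsb10) and none in 31.

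A gene entered the test if it passed filterByExpr at a minimum count of 10. TMM scaling and the quasi-likelihood test came from edgeR 4.0.16 (R 4.3.3), and group was the only term. The SE is the log2 fold change over the root of F. Of the 46095 symbols 23335 were at 0 in all libraries, and 14120 were tested. The biological coefficient of variation was 3.99%. Positions, lengths and GC content came from GENCODE M21 (GRCm38). Between CON and sTREM-1 libraries of the same number, deviations from the group means correlated at -0.018, -0.033 and -0.014. Whether the libraries were prepared in pairs cannot be told from these values. All pairs of libraries differed beyond sampling noise. The chi-square for each gene averaged 3.47 to 5.02 within a group and 20.3 to 22.3 between groups.

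The members and lists were chosen with earlier results of these data known. Library values are given for the 12 called members of largest change, the actin isoforms, cytolinkers and Gas7, and the 6 members most abundant per kb. Other genes named are the 5 regulators of largest called change and the reference genes, of which some are not reported here. Pfn1, Coro1b, Rhog, Rac2 and the partner and pathway genes were named after their values were seen. Alternatives were DESeq2 1.42.0, relative log expression (RLE) size factors, other filters, thinning, a GC and length correction, a replicate block, each library left out and, chosen after seeing the data, library-total and upper-quartile scaling.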

Additional observations from a re-analysis of the deposited data

How the results depend on the processing

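Of the 32 called members, 22 kept their call in all 16 other fits, 24 kept it in all 6 fits that left out a library, and 0 reversed. The number of called members lay between 27 and 36 over these fits, that of higher calls between 14 and 19 and that of lower calls between 13 and 19. A requirement of at least a 1.2-fold change left 5 called members, 4 higher and 1 lower. With the replicate block, for which the labels' numbers are no evidence of pairing, 36 members were called, 19 higher and 17 lower, and no call was lost. The median log2 fold change of the members was 0.013, and 0.0034 to 0.020 without a library. It turned to -0.0080 with upper-quartile scaling and to -0.0036 with scaling by library total, both chosen after seeing the data, so its sign is not a stable result. Other actin regulators called numbered 28 to 40. The log2 fold change of Actb lay between 0.10 and 0.15. The 10 calls lost in at least 1 fit were of Actr2, Arpc1a, Arpc1b, Cdc42, Enah, Lcp1, Myh9, Tmsb4x, Wasf2 and Zyx, and the cause of these losses was not tested.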
